A study of Mus musculus with 6 samples.

Results

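The immediate early genes outside the AP-1 family were followed on arrays of mouse bone marrow neutrophils with and without miR-223. They comprised 10 genes measured by 13 probe sets out of 45101 on the array, and were chosen by probe set number: Egr1 (1417065), Nr4a1 (1416505), Myc (1424942_A), Klf2 (1448890), Klf4 (1417394 and 1417395), Klf6 (1418280 and 1433508), Ier2 (1416442), Dusp1 (1448830), Zfp36 (1452519_A) and Btg2 (1416250 and 1448272). Each probe set reads a transcript through several short probes. The deposited table lists probe set numbers alone, so the gene names are those that came with this choice and were not checked against an array annotation.

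The study compared neutrophils of miR-223 null mice (3 arrays) with neutrophils of wild-type mice (3 arrays). Per the labels, cells came straight from the bone marrow of a mouse, were selected by MACS, a magnetic sort, through a Gr-1 antibody, and received no treatment besides the isolation. Strain, age and sex, and whether the arrays of a group came from separate animals, are not stated, so p-values cover only the variation among these arrays, which may in part be technical. Besides Ly6G, a neutrophil antigen, Gr-1 antibodies recognise Ly6C, an antigen of monocytes. Neither the purity of the cells nor the loss of miR-223 was checked, because probe sets other than the 13 members and the array's control probe sets were not given gene names here.

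Immediate early genes are transcribed within minutes of a stimulus, without new protein synthesis, when kinase cascades act on factors already bound at their promoters. Their transcripts are short-lived, and several of the proteins switch the response off again. In neutrophils and other leukocytes they respond to cytokines, microbial products and adhesion, and also to cell isolation itself.

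The microRNA missing from the null mice is encoded on the X chromosome (GRCm38.p6). The labels separate the groups by the loss of this microRNA, which has a 5p and a 3p arm. The sequence of its 3p arm, from RefSeq, is shown. It lies at chrX:96242884-96242905 on the plus strand, and its seed (bases 2 to 8) is in capitals.
mmu-miR-223-3p: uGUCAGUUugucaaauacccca

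Of the 10 genes, 7 matched a RefSeq promoter of the same build, taken as 300 bases from 250 before to 50 after the transcription start. Egr1, Ier2 and Myc had no entry. The promoters were searched on both strands for the CArG box (the site of serum response factor), the cyclic AMP response element TGACGTCA, the MEF2 box and the EGR site GCGNGGGCG. The 4 stretches of 30 bases below show the matches to the motifs other than the EGR site, whose matches are not printed. They are in Klf2, Dusp1, Btg2 and Zfp36. The Klf2 difference between the groups passed the threshold in a fit described further on. Dusp1 and 1 of the 2 Btg2 probe sets had the same lowest pair of arrays. The motif is in capitals, and each stretch reads 5′ to 3′ along the gene's strand.
Klf2, MEF2 box, chr8:72318934-72318963, plus strand: tataccgcggCTAAATTTAGgctgagcccg
Dusp1, cyclic AMP response element, chr17:26508597-26508626, minus strand: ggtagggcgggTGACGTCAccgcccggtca
Btg2, cyclic AMP response element, chr1:134079303-134079332, minus strand: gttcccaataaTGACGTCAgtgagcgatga
Zfp36, CArG box, chr7:28379267-28379296, minus strand: ccaggccgccCCATAAAAGGagaaagctcc

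The Klf2 match began 118 bases before the transcription start, the Dusp1 match 143, the Btg2 match 166 and the Zfp36 match 58. A MEF2 box was found in 3.19% of all 32851 promoters in the table and in Klf2 alone among the 7 searched. The cyclic AMP response element was in 1.79% of all promoters and in 2 of the 7 (Btg2 and Dusp1). The CArG box was in 1.63% and in 1 of the 7 (Zfp36). The EGR site was in 5.55% of all promoters and in 5 of the 7 (Btg2, Klf2, Klf4, Nr4a1 and Zfp36). The 7 promoters were rich in G and C, at a median of 69.3% against 52.7% for all promoters, and the EGR site consists almost wholly of these bases. None of the matches shown overlapped another of the searched motifs. A match describes the letters in the window and does not show that a factor was bound. The stretches were chosen in part from the expression values, and a link between a match and those values was not tested.

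The values are deposited log2 expression values, on which 1 unit is a doubling. All 13 probe sets were bright enough to be tested, together with 22506 others, in limma. The arrays had nearly equal medians, between 4.81 and 4.84. They parted, however, by the hybridization controls, which are bacterial and phage sequences that Affymetrix protocols add to the labelled sample. The mean over 18 such probe sets was 10.94 to 10.98 on null replicates 1 and 2 and wild-type replicate 1, called the brighter set here. It was 10.72 to 10.81 on null replicate 3 and wild-type replicates 2 and 3, the dimmer set. The Gapdh 3′ probe set exceeded the 5′ one by 0.23 to 0.33 on the brighter arrays and by 0.038 to 0.17 on the dimmer ones. Since null and wild-type arrays are unevenly spread over the sets, differences are also given within each set and from a fit that has the set as a block.

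No member differed between null and wild-type neutrophils at an adjusted p of 0.05 when the groups were compared without a block. Klf2, Myc and Egr1 had the highest null means relative to wild type, at 1.37-, 1.41- and 1.79-fold, and Klf2 rose past the threshold, at 1.48-fold, in the fit that blocked on the technical set. The other 7 genes lay between 0.94- and 1.13-fold. In detail, 0 of 13 probe sets passed (limma, Benjamini-Hochberg over 22519 probe sets), where 3.84% of all probe sets did, 2.78% higher and 1.06% lower in null cells. At an unadjusted p of 0.05, 2 of 13 differed, Myc and Klf2, against 18.7% of all probe sets. For 1 member, Myc, the values of the groups did not overlap, with null higher; 24.6% of all probe sets had no overlap and 12.8% had none with null higher. The median difference over the members was 0.12 log2 units, and over all probe sets it was −0.0080. The members' median depended on single arrays: it was 0.069 without null replicate 2, 0.25 without null replicate 3 and 0.22 without wild-type replicate 2. It was 0.075 in the block fit, and −0.011 there without wild-type replicate 1. In these bulk samples, a change in the make-up of the sorted cells and a change in RNA per cell cannot be told apart.

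**Figure D1:**
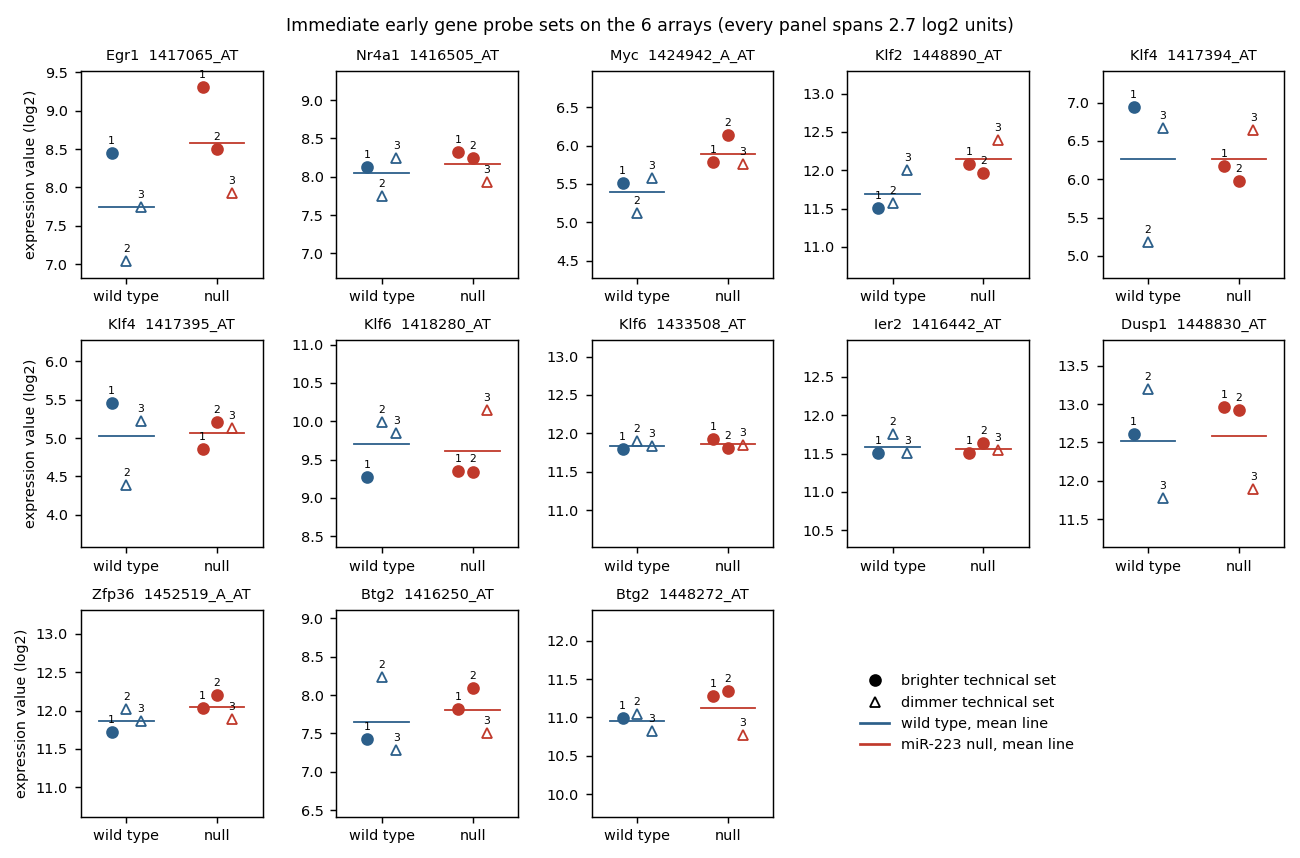
Log2 expression value (vertical axis) of each of the 13 probe sets on the 3 wild-type arrays (blue) and the 3 miR-223 null arrays (red), numbered by replicate, with the group mean as a line; filled circles are arrays of the brighter technical set and open triangles those of the dimmer set. The groups are apart for Myc alone, and the 6 values of Klf6 1433508_AT and Ier2 are close together while those of Egr1, Klf4 and Dusp1 are widely spread.

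Klf2 is a zinc-finger factor of the Krüppel-like family that keeps lymphocytes quiescent and restrains inflammatory activation in myeloid cells. It is the gene whose promoter stretch with the MEF2 box is printed above. Its values were 12.08, 11.96 and 12.40 on null replicates 1, 2 and 3, and 11.50, 11.57 and 12.01 on wild-type replicates 1, 2 and 3. Wild-type replicate 3 lay just above null replicate 2, so the groups overlapped by that pair alone. The means were 12.15 ± 0.22 for null and 11.69 ± 0.27 for wild type (SD, n = 3 each). The difference was 0.45 log2 units with a standard error of 0.16 and a 95% interval of 0.087 to 0.82 (limma adjusted p = 0.170). Within the brighter set null cells were higher by 0.52 and within the dimmer set by 0.61, so the size was similar in separate arrays.

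With the technical set as a block, the Klf2 difference was 0.56 with a standard error of 0.11 (limma adjusted p = 0.0225), which is 1.48-fold with a 95% interval of 1.23 to 1.77. It was the 1 member of 13 that passed in that fit, where 11% of all probe sets passed, and 5.57% with a higher level in null cells. The call rested on most of the arrays. In the block fit the adjusted p was 0.0814, 0.0623 and 0.172 without null replicate 1, 2 or 3 and 0.151 without wild-type replicate 1. Without wild-type replicate 2 or 3 the adjusted p was 0.00418 or 0.00884, and in the first of these fits 12.9% of all probe sets passed. The difference itself stayed between 0.46 and 0.65 in these 6 fits.

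Myc, the factor that drives growth and proliferation and is low in maturing granulocytes, was the only member with no overlap. It read 5.79, 6.13 and 5.76 on null replicates 1 to 3 and 5.51, 5.12 and 5.57 on wild-type replicates 1 to 3. Null replicate 3 exceeded wild-type replicate 3 by a small margin, and wild-type replicate 2 was the lowest array. The means were 5.90 ± 0.21 and 5.40 ± 0.24 (SD, n = 3 each), a difference of 0.50 with a standard error of 0.17 (limma adjusted p = 0.158). The 95% interval was 0.11 to 0.88, or 1.08- to 1.84-fold. Null cells were higher by 0.45 in the brighter set and by 0.42 in the dimmer set. The block fit gave 0.44 (limma adjusted p = 0.156). Myc was dim, with a mean level of 5.65 where the filter level was 4.83. With an offset of 16 on the linear scale its difference was 0.37 (limma adjusted p = 0.154).

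Egr1, an early zinc-finger factor linked to macrophage differentiation, showed the widest range of all members, 4.82-fold between its lowest and highest array. It read 9.31, 8.50 and 7.93 on null replicates 1 to 3 and 8.45, 7.04 and 7.74 on wild-type replicates 1 to 3. The null mean was 8.58 ± 0.69 and the wild-type mean 7.74 ± 0.71 (SD, n = 3 each). The difference of 0.84 had a standard error of 0.42 and a 95% interval of −0.15 to 1.82, so neither no change nor a 2-fold higher level lay outside it (limma adjusted p = 0.351). Egr1 followed the technical sets. Every brighter array (8.45 to 9.31) lay above every dimmer one (7.04 to 7.93). The sets did not overlap, in either direction, for 17.6% of all probe sets. With null and wild type in the fit, the Egr1 set effect was 1.02 log2 units (limma adjusted p = 0.0824). Null cells were higher by 0.46 in the brighter set and by 0.54 in the dimmer set, and the block fit gave 0.50 with a standard error of 0.25 (limma adjusted p = 0.277).

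Nr4a1, an orphan nuclear receptor induced by the same stimuli, differed little. Its values were 8.32, 8.24 and 7.92 in null and 8.13, 7.75 and 8.25 in wild-type replicates 1 to 3, a difference of 0.12 with a 95% interval of −0.26 to 0.50 (limma adjusted p = 0.787). The groups overlapped, and the difference had opposite signs in the sets, at 0.15 in the brighter and −0.074 in the dimmer one.

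**Figure D2:**
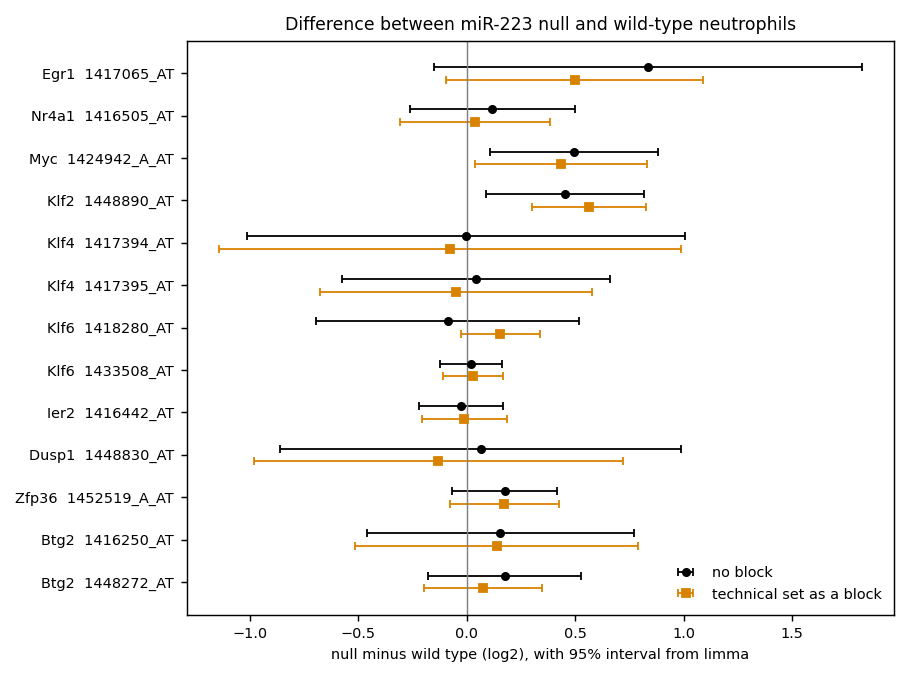
Difference between miR-223 null and wild-type neutrophils (horizontal axis, log2 units) for each probe set, with limma's 95% interval, from the fit without a block (black circles) and the fit that blocks on the technical set (orange squares). The intervals of Myc and Klf2 lie above 0 in both fits, and of these fits Klf2 passed the adjusted threshold in the one with the block alone.

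Klf4, which drives monocyte differentiation, was measured by a pair of probe sets that shared their highest and lowest array. Probe set 1417394_AT read 6.17, 5.98 and 6.64 on null replicates 1 to 3 and 6.95, 5.19 and 6.66 on wild-type replicates 1 to 3. Probe set 1417395_AT read 4.86, 5.21 and 5.13 in null and 5.46, 4.39 and 5.22 in wild-type cells, near the filter level of 4.83. In both, wild-type replicate 1 was the highest and wild-type replicate 2 the lowest of all 6 arrays, so the null values fell inside the wild-type range. The group means nearly coincided, with differences of −0.0032 and 0.044 (limma adjusted p = 0.999 and 0.964). The 95% interval of the first ran from −1.01 to 1.01, so differences up to about 2-fold either way lay inside it. Within the sets the signs were opposite, at −0.88 and −0.42 in the brighter set and 0.72 and 0.32 in the dimmer set.

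Klf6, a family member with a role in inflammatory gene expression in macrophages, gave a different picture in each of its probe sets. For 1433508_AT all 6 values lay between 11.80 and 11.93, a 1.10-fold range, and the 95% interval of the difference was −0.12 to 0.16. For 1418280_AT the values were 9.35, 9.34 and 10.15 in null and 9.27, 9.99 and 9.85 in wild-type replicates 1 to 3. The arrays of the brighter set (9.27 to 9.35) were all below those of the dimmer set (9.85 to 10.15), irrespective of genotype. The set effect was −0.73 log2 units with a standard error of 0.078 (limma adjusted p = 0.0297). Klf6 1418280_AT was the 1 member of 13 with a set effect past the threshold, against 1.94% of all probe sets, and it and Egr1 were the members whose sets did not overlap, against 17.6% of all probe sets.

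The null minus wild-type difference for 1418280_AT changed sign with the treatment of the sets. It was −0.087 without a block (limma adjusted p = 0.917) and 0.15 with it (limma adjusted p = 0.273), with 0.082 in the brighter and 0.23 in the dimmer set. The part of the 3′ to 5′ balance, which also differed between the sets by the Gapdh measure above, was not tested.

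Ier2, a small nuclear protein among the first to be induced, was even across the arrays. Its values ran from 11.51 to 11.63 in null and from 11.51 to 11.75 in wild-type cells. The difference was −0.027 with a 95% interval of −0.22 to 0.17 (limma adjusted p = 0.922), whose upper end is a 1.12-fold higher level in null cells.

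Dusp1, Zfp36 and Btg2 limit the response that induces them. Dusp1 is a phosphatase that inactivates the kinases p38 and JNK. It read 12.96, 12.92 and 11.89 on null replicates 1 to 3 and 12.61, 13.20 and 11.77 on wild-type replicates 1 to 3. The replicate 3 arrays of both groups were low and the other 4 high, a 2.69-fold range that cut across the genotypes. The difference was 0.065 with a 95% interval of −0.86 to 0.99 (limma adjusted p = 0.964). It was 0.33 in the brighter and −0.60 in the dimmer set, and −0.13 with the set as a block (limma adjusted p = 0.875).

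Btg2 is an antiproliferative protein that also promotes shortening of poly(A) tails. Probe set 1448272_AT read 11.28, 11.34 and 10.77 in null and 10.99, 11.05 and 10.82 in wild-type replicates 1 to 3. Its lowest arrays were again the replicate 3 arrays of both groups. Probe set 1416250_AT read 7.82, 8.09 and 7.51 in null and 7.42, 8.24 and 7.29 in wild-type cells, and there replicate 3 was the lowest array within each group, although wild-type replicate 1 lay below null replicate 3. As for Dusp1, wild-type replicate 2 was the highest of all arrays for this probe set. The differences were 0.17 and 0.16, with 95% intervals of −0.18 to 0.53 and −0.46 to 0.77 (limma adjusted p = 0.624 and 0.834). Both were positive in the brighter set (0.31 and 0.53) and negative in the dimmer one (−0.16 and −0.25).

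Zfp36, also called tristetraprolin, binds AU-rich elements and speeds the decay of Tnf and other cytokine transcripts. It read 12.04, 12.21 and 11.89 in null and 11.73, 12.02 and 11.87 in wild-type replicates 1 to 3. The groups overlapped, with the highest value in null replicate 2 and the lowest in wild-type replicate 1. The difference was 0.17 with a 95% interval of −0.067 to 0.42 (limma adjusted p = 0.437), and it was 0.40 in the brighter and −0.051 in the dimmer set.

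Within the technical sets, null cells were above wild type on every array of both sets for 4 of 13 probe sets, namely Egr1, Myc, Klf2 and Klf6 1418280_AT. Among all probe sets this held for 21.5%, and the reverse, which no member showed, for 22.7%. The sign of the difference was the same in both sets for these 4 members alone, and for 66.7% of all probe sets. Of the other 9, the 2 Klf4 probe sets were lower in null cells in the brighter set and higher in the dimmer set, and the remaining 7 the other way round. Each set holds 1 array of one genotype and 2 of the other. In the block fits without null replicate 3 and without wild-type replicate 1, which compare the genotypes inside the brighter and the dimmer set alone, 0 of 13 members passed (limma), where 2.06% and 0.546% of all probe sets did. At an unadjusted p of 0.05 (limma), 3 and 1 of the 13 members differed in these fits, against 4228 and 3727 of all 22519 probe sets.

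**Figure D3:**
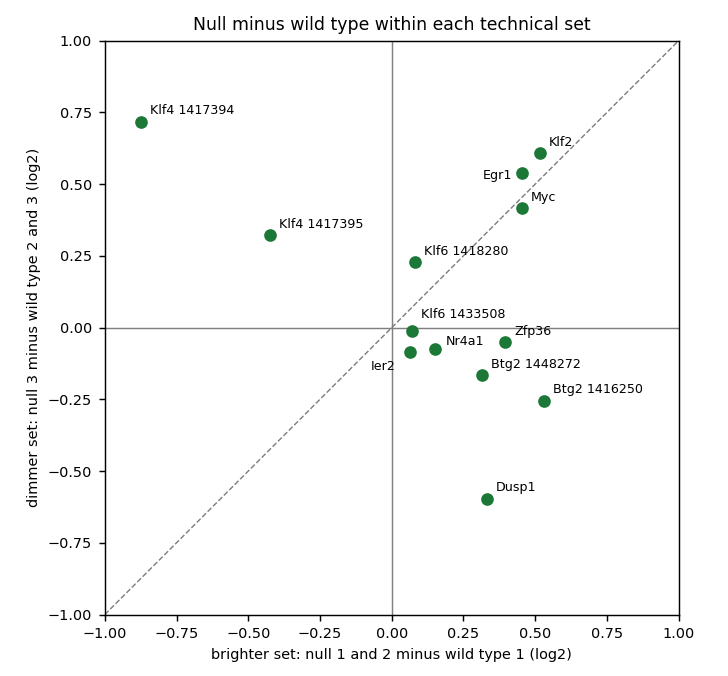
Null minus wild-type difference (log2 units) of each probe set in the brighter set (horizontal axis, wild-type replicate 1 subtracted from the mean of null replicates 1 and 2) and in the dimmer set (vertical axis, null replicate 3 against wild-type replicates 2 and 3); the dashed line marks equal differences. Klf2, Egr1 and Myc sit together near the line at 0.42 to 0.61, Klf4 lies at the upper left, and Dusp1 and Btg2 lie at the lower right.

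Several members varied more between arrays of the same genotype than most transcripts did. The pooled SD within groups was 0.71 for Klf4 1417394_AT, 0.70 for Egr1 and 0.66 for Dusp1, which stood at the 99.4th, 99.3rd and 99.1st percentile of all tested probe sets. Klf6 1418280_AT, Btg2 1416250_AT and Klf4 1417395_AT stood at the 94.9th, 94.7th and 94.6th percentile, so that 6 of 13 probe sets were above the 90th. These SDs include any shift between the technical sets. In the block fit the SD was 0.077 for Klf6 1418280_AT and 0.44 for Egr1. It was 0.81 there for Klf4 1417394_AT, 0.66 for Dusp1, 0.48 for Btg2 1416250_AT and 0.44 for Klf4 1417395_AT. With the replicate number as the block instead, the SD was 0.23 for Dusp1 and 0.20 for Btg2 1416250_AT. In that fit it was 0.35 for Klf6 1418280_AT, 0.45 for Egr1, 0.55 for Klf4 1417394_AT and 0.51 for Klf4 1417395_AT. Over all levels, Klf6 1433508_AT (0.057) was at the 6.03rd percentile and Ier2 (0.11) at the 28.2nd. The median SD was 0.25 over the members and 0.15 over all probe sets. Because bright probe sets vary less than dim ones, the members were also ranked within 20 bins of level. There 8 of 13 were above the 90th percentile, with Klf2 (96.0th) and Btg2 1448272_AT (90.5th) besides the 6 above. Klf6 1433508_AT was at the 25.2nd percentile of its bin, and Ier2, at the 61.4th, was ordinary for its level. The wide spread sets the precision of the fit without a block. There the 95% interval lay within 2-fold either way for 11 of 13 probe sets, and it reached beyond for Egr1 and Klf4 1417394_AT.

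**Figure D4:**
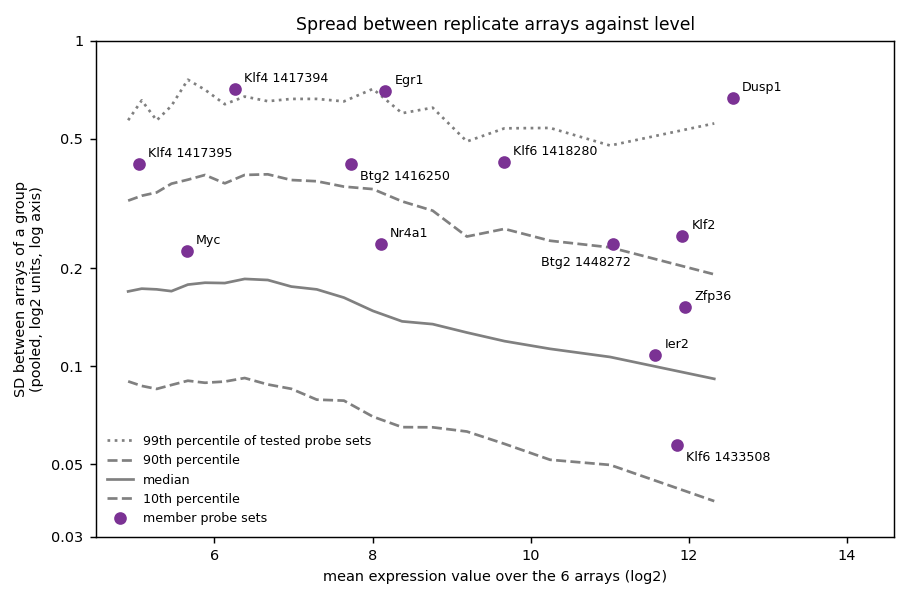
SD between arrays of the same genotype (vertical axis, log2 units on a log axis, pooled over both groups) against the mean log2 value over the 6 arrays (horizontal axis) for the 13 member probe sets (purple). Grey lines give the 10th, 50th, 90th and 99th percentile of the 22519 tested probe sets in 20 bins of level; Klf4 1417394_AT (0.71), Egr1 (0.70) and Dusp1 (0.66) lie close to or above the uppermost line, and Klf6 1433508_AT (0.057) lies below the median line.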

How the data were processed

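RNA of Gr-1-selected bone marrow neutrophils was labelled with biotin and measured on Affymetrix arrays, 3 for miR-223 null and 3 for wild-type mice. The authors deposited 1 log2 value per probe set and array. GCOS is named in the submitters' processing notes. For its version and for the normalization steps, the sources used here give nothing. A log2 scale was inferred from the values (2.12 to 14.98), and the sorted columns differ by at most 0.0890, so no scaling was added. The number of arrays limits the precision.

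After removal of 64 control probe sets, the 22519 probe sets with a mean at or above the median (4.83) entered limma 3.58.1 under R 4.3.3 (lmFit, eBayes with an intensity trend, two-sided, Benjamini-Hochberg at 0.05). The code was tested on simulated data. Technical sets were split at the largest gap (0.131, the next being 0.0501) in the mean of the hybridization controls. Figures used matplotlib 3.10.9. The members, lists and alternatives were chosen with earlier results of these data known. All 13 members are named by rule, and the 5 probe sets most like them in pattern are summarised. Planned lists of related immediate early genes, upstream kinases and factors, and cell type markers were not analysed here, since no pairing of further probe sets with genes was used.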

Additional observations from a re-analysis of the deposited data

How the results depend on the processing

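No member passed the threshold without a block, with no filter, with the filter at the 75th percentile (which left 10 of the 13), after quantile normalization, with an offset of 16 on the linear scale, without the intensity trend, or with null replicates 1 and 2 averaged. With the technical set as a block 1 passed (Klf2), and leaving out 1 array gave 0 to 2, the second being Dusp1 in the block fit without wild-type replicate 2 (0.24, limma adjusted p = 0.0492). Over all probe sets, 864 passed, 625 higher and 239 lower. With the set as a block 2466 passed, 1255 higher and 1211 lower. With null replicates 1 and 2 averaged 119 passed, and leaving out 1 array, with and without the block, gave 85 to 2909. The averaging and the leave-one-out fits with the block were chosen after seeing the data.

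Replicate numbers are shared by the groups. Deviations of same-numbered arrays from their group means correlated at 0.211, −0.124 and 0.371 for replicates 1 to 3. The replicate 1 arrays are both in the brighter set, the replicate 3 arrays both in the dimmer set, and the replicate 2 arrays in different sets. These correlations therefore cannot tell a pairing from the technical sets. The main fit does not pair the arrays. With the replicate block, 1 member passed, Klf2 (0.45, limma adjusted p = 0.0275) among 857 probe sets in all.

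Of 257 recomputed member differences over 20 alternatives, 50 had the opposite sign, none past the threshold. The cause of these changes of sign was not tested. The count includes fits with another filter or none, with the replicate block and without the intensity trend. These leave the difference unchanged by construction, so no sign could change there. With the set as a block, Klf4 1417395_AT was −0.050, Klf6 1418280_AT 0.15 and Dusp1 −0.13. With null replicates 1 and 2 averaged, Klf4 1417394_AT was 0.092, Klf6 1418280_AT 0.046 and Dusp1 −0.11. Leaving out 1 array, with and without the block, gave −0.074 to 0.24 for Nr4a1, −0.88 to 0.72 for Klf4 1417394_AT, −0.42 to 0.32 for Klf4 1417395_AT, −0.35 to 0.23 for Klf6 1418280_AT and −0.014 to 0.069 for Klf6 1433508_AT. The ranges were −0.086 to 0.064 for Ier2, −0.60 to 0.42 for Dusp1, −0.051 to 0.40 for Zfp36, −0.25 to 0.53 for Btg2 1416250_AT and −0.16 to 0.35 for Btg2 1448272_AT. Egr1 and Klf2 were higher in null cells under all 20 alternatives, at 0.33 to 1.19 and 0.33 to 0.65. Myc was higher, at 0.34 to 0.58, under every alternative in which it was tested. The stricter filter on level removed Myc and both Klf4 probe sets. Counts for related immediate early genes, and for every probe set of a gene in place of its brightest, were not run.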

Other observations

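Averaged over the 10 genes, after each probe set was centred on its own mean, the members lay 0.20 and 0.18 log2 units above their mean on null replicates 1 and 2, at −0.035 on null replicate 3 and −0.034 on wild-type replicate 1, and at −0.19 and −0.12 on wild-type replicates 2 and 3. Egr1 carried a large part of this. Over the other 9 genes the values were 0.094, 0.16 and −0.013 on null replicates 1 to 3 and −0.070, −0.086 and −0.083 on wild-type replicates 1 to 3. The lowest array was a wild-type array for 12 of 13 probe sets, and for 50.9% of all tested probe sets. The highest array was a null array for 8 of 13, and for 46.7% of all. Klf4, Klf6 and Btg2 each enter these counts through 2 probe sets. The counts are a description of 6 arrays.

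The 5 tested probe sets outside the members with the profile most like the mean over the 10 genes had Pearson's r between 0.992 and 0.996 over the 6 arrays. The first were 1423704_AT, with a null minus wild-type difference of 0.47 (limma adjusted p = 0.174), and 1433464_AT, with 0.19 (limma adjusted p = 0.374). They carry no gene name here, and with 22506 candidates and 6 arrays a high r is easily found.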
